A study of Mus musculus with 2 samples.

Results

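The mouse genes whose symbols begin with Srsf, Snrp, Hnrnp, Sf3a or Sf3b encode the SR proteins, the core proteins of the small nuclear ribonucleoproteins (snRNPs), the heterogeneous nuclear ribonucleoproteins (hnRNPs), and the subunits of splicing factors SF3a and SF3b. All rows of the deposited count table with those prefixes were taken, whatever their values. They number 49 of 23337 rows: 11 Srsf, 12 Snrp, 18 Hnrnp and 8 Sf3a or Sf3b. Expression was measured in regulatory T (Treg) cells, CD4 T cells that restrain immune responses and, in muscle, aid repair, sorted from injured skeletal muscle. Both groups were 8-week-old male mice on the Foxp3-IRES-GFP/C57BL/6 background, in which green fluorescent protein marks cells that express Foxp3. In both, the tibialis anterior, quadriceps and gastrocnemius muscles received cardiotoxin, a venom component that destroys muscle fibres, so the control mice were injured too. One group also received 0.3 ug of recombinant IL-33, an alarm cytokine released by damaged tissue, and the other received PBS. Muscle was taken on day 4 after injury, and 5000 Treg cells were sorted for each library. The sources used here do not say how many mice gave the cells, whether they were pooled, or which surface markers the sort used.

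Splicing removes introns from pre-mRNA in the nucleus. The snRNPs are built on a ring of Sm proteins that holds the small nuclear RNA; U1 snRNP pairs with the upstream splice site and U2 snRNP with the branch point, where SF3a and SF3b clamp it. SR proteins mostly bind exonic enhancers and recruit these particles, while hnRNPs coat the transcript and often repress or shift splice site choice. T cells are known to change exon use after activation, as in the CD45 gene Ptprc, and several hnRNPs take part in that switch.

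There was 1 library per group, so no difference has a replicate check and no test was made; "higher" and "lower" compare the IL-33 library with the PBS library. Levels are counts scaled to equal library totals (CPM, the usual depth-scaled unit). The IL-33 library held 4080791 counts and the PBS library 1573707, 2.59 times fewer, so 1 count was worth 0.245 and 0.635 CPM. Where values are given in pairs, the IL-33 library comes first. Ratios divide the IL-33 level by the PBS level, with an exact conditional (Clopper-Pearson) 95% interval. The reads carried no named molecular identifiers, and these intervals cover counting error only, with scaling to library totals. A level of 5 CPM in either library was required (9005 of all genes had it), and a gene was counted as apart when it differed at least 2-fold on log2(CPM + 1), which shrinks the differences of weakly counted genes. In sorted bulk RNA, fewer cells of a type and less RNA per cell cannot be told apart.

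The Treg marker list held Foxp3, Il2ra, Ctla4 and Ikzf2 with the T cell genes Cd4, Cd3e, Cd3d and Cd3g. All 8 had counts in both libraries, with summed levels of 11410 CPM (IL-33) and 11530 CPM (PBS). Ctla4 alone gave 6186 and 6246 CPM, so the sum says little about Treg identity. Foxp3 itself had only 40 counts and 1 count (9.80 and 0.635 CPM). Of 44 markers of 9 other cell types, 20 were at 0 in both libraries, and the summed level of each list ran from 0 to 49.3 CPM and from 0 to 66.1 CPM. Above 5 CPM were 12 of them, 1 at least 2-fold higher and 5 lower, against 15.5% and 16.3% of all genes. The 5 fibroblast markers summed to 0 counts against 104, though Col1a1 and Col1a2 were at 0 in both. All 4 neutrophil markers were at 0 in both libraries. The part of other cells in the results below was not tested.

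Members of these families have many processed pseudogenes and close paralogs, and short reads from identical stretches cannot be assigned to 1 gene. Each coding sequence was therefore cut into all its 25-base words, the length of the reads, and each word was looked for in the transcripts of every other annotated gene (GENCODE M21, GRCm38, the assembly that mm10 names). The first 120 coding bases of 6 members show the range, from copies that are identical throughout to a sequence with no copy. Capitals mark bases that lie in a word also present in another gene's transcripts; lower case marks bases that do not. The sequences are reference transcripts on the coding strand, 5′ to 3′.

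Hnrnpa1: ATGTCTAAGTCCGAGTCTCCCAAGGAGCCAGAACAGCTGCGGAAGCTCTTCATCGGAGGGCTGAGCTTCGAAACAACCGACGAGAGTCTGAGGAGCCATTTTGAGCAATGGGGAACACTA
Sf3b4: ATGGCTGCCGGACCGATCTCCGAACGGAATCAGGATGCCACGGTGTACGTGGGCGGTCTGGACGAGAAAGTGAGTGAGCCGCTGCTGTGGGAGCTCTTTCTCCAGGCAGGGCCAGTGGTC
Hnrnpf: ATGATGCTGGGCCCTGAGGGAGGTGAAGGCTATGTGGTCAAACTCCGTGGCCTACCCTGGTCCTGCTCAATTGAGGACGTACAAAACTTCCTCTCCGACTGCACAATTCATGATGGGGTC
Snrpg: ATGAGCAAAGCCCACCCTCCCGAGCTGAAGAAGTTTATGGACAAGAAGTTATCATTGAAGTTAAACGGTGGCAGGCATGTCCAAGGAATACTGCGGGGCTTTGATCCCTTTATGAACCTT
Hnrnpa2b1: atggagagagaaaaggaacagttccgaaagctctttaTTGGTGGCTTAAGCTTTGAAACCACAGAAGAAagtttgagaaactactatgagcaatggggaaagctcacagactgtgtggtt
Snrpd3: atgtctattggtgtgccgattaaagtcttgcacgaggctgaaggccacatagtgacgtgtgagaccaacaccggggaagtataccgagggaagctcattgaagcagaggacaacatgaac

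Hnrnpa1 encodes the most studied A-type hnRNP and lies at chr15:103240432-103246692 on the plus strand. All 936 of its coding words occurred in other genes, and its transcripts shared words with 54 genes, 48 of them annotated pseudogenes. Over its whole transcripts 990 of 1915 words (51.7%) were shared, so the rest occurred in no other gene. The table listed it at 2 counts and 0. Of the 48 pseudogenes, 2 had rows of their own. Gm10052, the processed pseudogene that shares the most words with Hnrnpa1 (936), was listed at 0 counts in both libraries. The other, Gm5643, shares 714 words and was listed at 352 and 110 counts (86.3 and 69.9 CPM, ratio 1.23, interval 0.994 to 1.54). Gm5643 was looked up after its values were seen. How the authors' counting divided reads between such copies is not given, and whether it set the low Hnrnpa1 count was not tested.

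Over the 8915 genes above 5 CPM that matched the annotation, the median share of transcript words found elsewhere was 1.82%, and 6.15% of them reached a share of 50%. The 43 members above 5 CPM had a median of 11.3%, with 3 at 50% or more. These 3 were Snrpf, Hnrnpf and Srsf4, at 92.8%, 70.3% and 66.9%. Not all of this sharing is with pseudogenes, whose part was 23.7%, 42.3% and 0.0% of the words in the same order. The 6 members under 5 CPM had a median of 44.9%, with 3 at 50% or more. Counting coding words alone, 10 members shared 80% or more: Hnrnpa1 and Snrpg at 100%, Hnrnpf at 98.2%, Hnrnpa3 at 97.8%, Srsf3 at 95.7%, Srsf10 at 88.3%, Hnrnpk at 87.0%, Sf3b4 at 86.6%, Snrpf at 83.3% and Snrpe at 82.9%. A high share did not go with a low count in every case: of these 10, 8 were above 5 CPM, and Hnrnpf stood at 1653 and 1610 CPM. Over whole transcripts the shares of the 10 were mostly lower, from 15.7% for Srsf10 to 92.8% for Snrpf. Coding shares were computed for the members only, so the 10 have no share of all genes beside them. Rows for pseudogenes that share their words were found only for Hnrnpa1, Hnrnpa3 and Srsf10. The values of all 10 are uncertain because of the shared words, to a degree that was not measured.

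**Figure D1:**
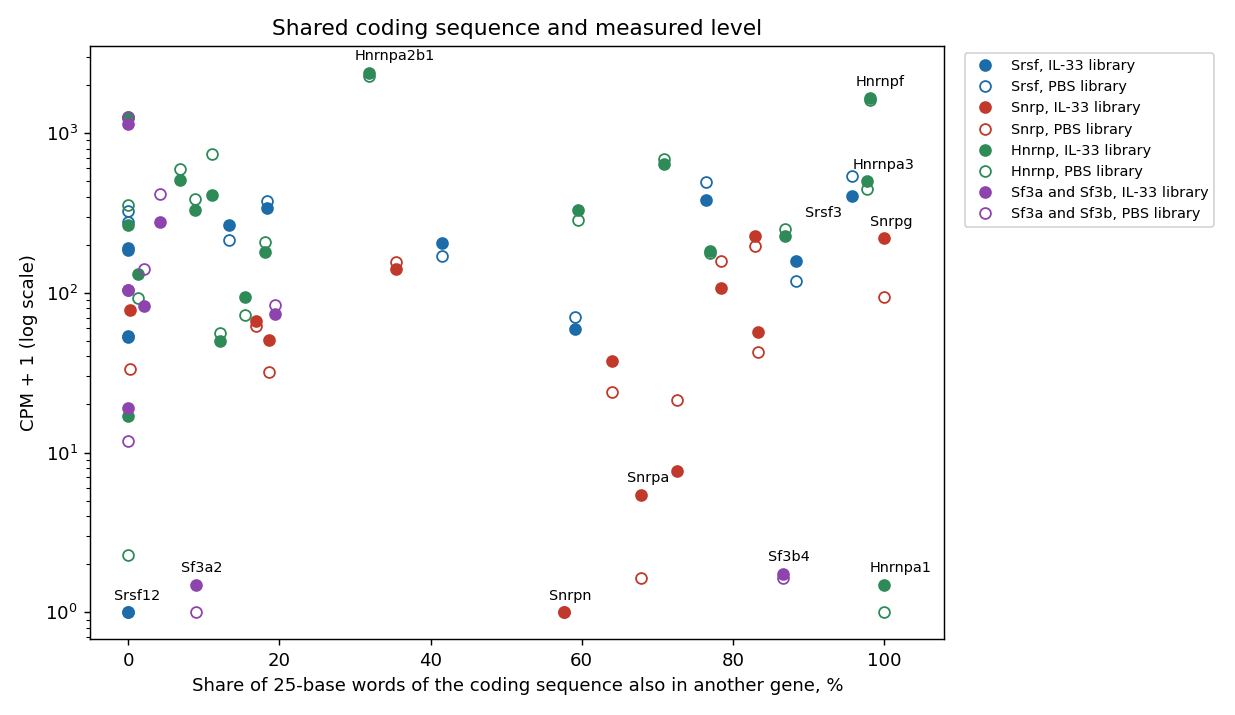
CPM + 1 (log axis) of each of the 49 members in the IL-33 library (filled points) and the PBS library (open points) against the share of 25-base words of its coding sequence that also occur in another gene, in percent, coloured by family. At the right edge Hnrnpf and Snrpg lie high and Hnrnpa1 and Sf3b4 lie near the bottom, while Sf3a2 is near the bottom with a share of only 8.95%.

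Most of the 49 members were well expressed in both libraries and differed little between them. Together they summed to 14040 and 14930 CPM, or 0.940 (0.926 to 0.955), or 1.40% and 1.49% of all counts. Of the 43 members above 5 CPM, 3 were at least 2-fold higher (Hnrnpul1, Snrpd3 and Snrpg), against 15.5% of all genes at that level. Hnrnpul1, at 15.9 and 1.27 CPM, reached 5 CPM only in the library where it was higher. Only Snrpc was at least 2-fold lower, against 16.3% of all genes. The median log2 difference of the 43 was -0.01, with 20 above 0 and 23 below, beside -0.08 and 45.6% above 0 for all genes.

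These background shares rest largely on genes with few counts. Of genes averaging at least 50 CPM, 3.53% were at least 2-fold higher and 4.96% at least 2-fold lower; of the 37 members at that level, Snrpd3 and Snrpg were higher and none was lower. At 1.5-fold, 6 of the 43 members were higher (the 3 above with Sf3b5, Snrpb and Snrpd1), against 23.5% of all genes. At the same fold 4 were lower (Snrpc, Hnrnph1, Srsf6 and Sf3a1), against 27.4% of all genes. Counting intervals lay wholly above a ratio of 1 for 15 members and wholly below for 15, against 28.6% and 35.1% of all genes, and 13 intervals held 1. By family, 0 of 10 Srsf, 3 of 10 Snrp, 1 of 17 Hnrnp and 0 of 6 Sf3 members above 5 CPM were at least 2-fold apart in either direction. Among all genes above 5 CPM that share was 31.8%, near the Snrp share and above the others, but it rests largely on genes with few counts. Of genes averaging at least 50 CPM, 303 of 3566 were 2-fold apart in either direction. At that level 2 of 6 Snrp, 0 of 10 Srsf, 0 of 16 Hnrnp and 0 of 5 Sf3 members were, numbers too small to rank the families.

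**Figure D2:**
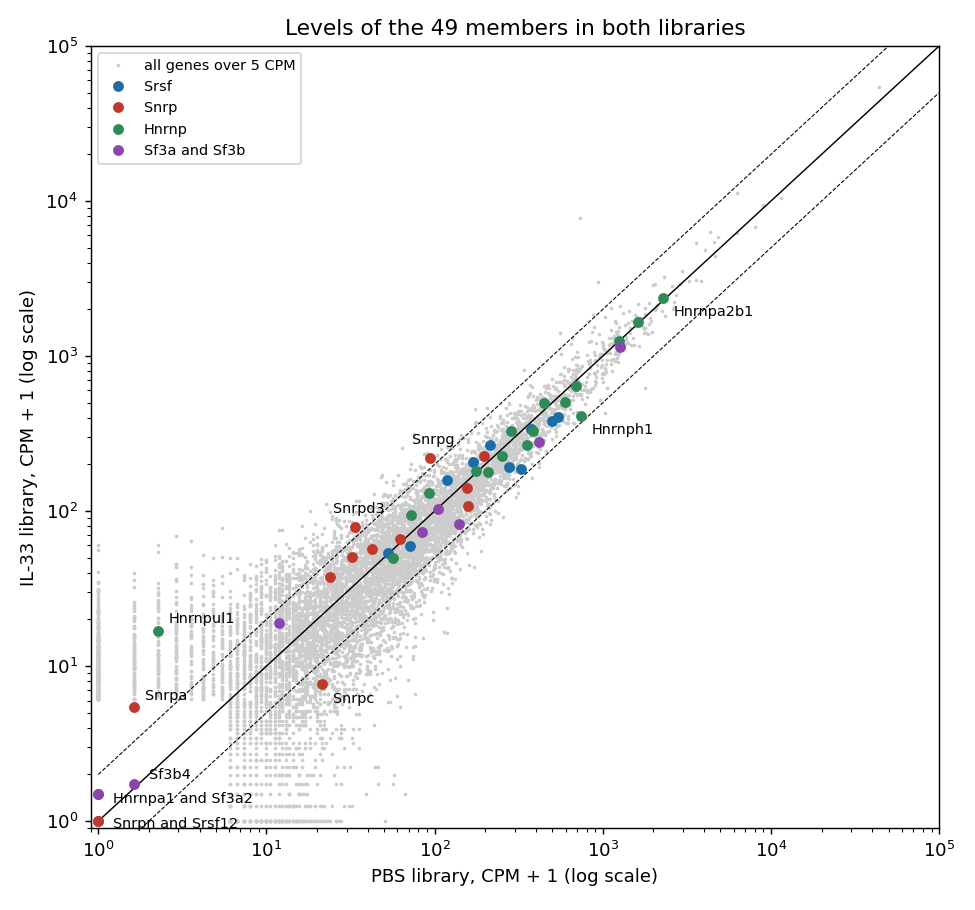
CPM + 1 of every gene above 5 CPM (grey) and of the 49 members (coloured by family), with the PBS library on the x axis and the IL-33 library on the y axis, both log scales; the solid line marks equal levels and the dashed lines 2-fold. Of the members above 5 CPM, Hnrnpul1, Snrpd3 and Snrpg lie above the upper dashed line and Snrpc below the lower one, while Hnrnpa2b1 is highest in both libraries.

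The snRNP proteins were the family with the highest summed ratio: 985.8 and 810.2 CPM, 1.22 (1.14 to 1.30), with a median log2 difference of 0.31 and 7 of 10 members above 0. The difference sat in the Sm ring, the 7 proteins B, D1, D2, D3, E, F and G that encircle every Sm-class small nuclear RNA. Those genes summed to 769.2 and 573.2 CPM, 1.34 (1.25 to 1.45), and 6 of the 7 were higher in the IL-33 library. Of all genes above 5 CPM 45.6% were higher. Of those with transcripts of 109 to 1613 nt that averaged at least 50 CPM, 59.15% were. Without Snrpd3 and Snrpg, which were singled out after their values were seen, the other 5 summed to 473.7 and 448.0 CPM, 1.06 (0.970 to 1.15).

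Snrpd3, whose product pairs with SmB in the ring, had 316 and 51 counts (77.4 and 32.4 CPM). Its ratio was 2.39 (1.77 to 3.28). The gene lies at chr10:75517551-75537381 on the plus strand, and only 0.282% of its coding words occur elsewhere, as its lower-case sequence above shows. Snrpg, at chr6:86371304-86379328 on the plus strand, encodes the G subunit that forms a trimer with SmE and SmF. It had 890 and 146 counts (218 and 92.8 CPM), a ratio of 2.35 (1.97 to 2.82). Every coding word of Snrpg has a copy in another gene, so its value is less certain than that of Snrpd3. Over whole transcripts the shares were 24.1% for Snrpg and 8.27% for Snrpd3.

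The other ring members were closer to 1. Snrpb had 202 and 49 counts (49.5 and 31.1 CPM), 1.59 (1.16 to 2.22). Snrpd1 had 149 and 36 counts (36.5 and 22.9 CPM), 1.60 (1.10 to 2.37). Snrpf stood at 56.1 and 41.3 CPM, 1.36 (1.03 to 1.82). These 3 intervals lay above 1 and overlapped each other. Snrpe, the most abundant ring gene per transcript length at 447 and 390 CPM per kb, had 225 and 196 CPM, 1.14 (1.005 to 1.31). Snrpd2 went the other way, at 107 and 156 CPM, 0.683 (0.583 to 0.802), although its protein sits beside SmD1 in the same ring.

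The 4 members specific to the U1 or U2 particle summed to a ratio of 0.914 (0.809 to 1.03), below the ring as a whole. That interval overlaps the one of the ring without Snrpd3 and Snrpg, 1.06 (0.970 to 1.15). Snrpc, the U1 protein that helps the particle hold the upstream splice site, lies at chr17:27838150-27851968 on the plus strand. It had 27 and 32 counts (6.62 and 20.3 CPM), a ratio of 0.325 (0.188 to 0.561). Of its coding words 72.6% occur elsewhere, and its transcripts share words with 17 pseudogenes, so this value too is uncertain. No row was found for any of the 17. Snrpb2, a U2 protein that binds the small nuclear RNA, stood at 140 and 155 CPM, 0.904 (0.777 to 1.05). Its partner Snrpa1 stood at 65.4 and 61.0 CPM, 1.07 (0.846 to 1.37), so neither U2 protein was apart beyond counting error. Snrpa, the U1 A protein, had 18 counts and 1 count, or 6.94 (1.10 to 289), and was under 5 CPM in both libraries. Snrpn, the imprinted and mostly neuronal SmN gene, had 0 counts in both, which allows up to 3 counts, or 0.735 and 1.91 CPM.

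**Figure D3:**
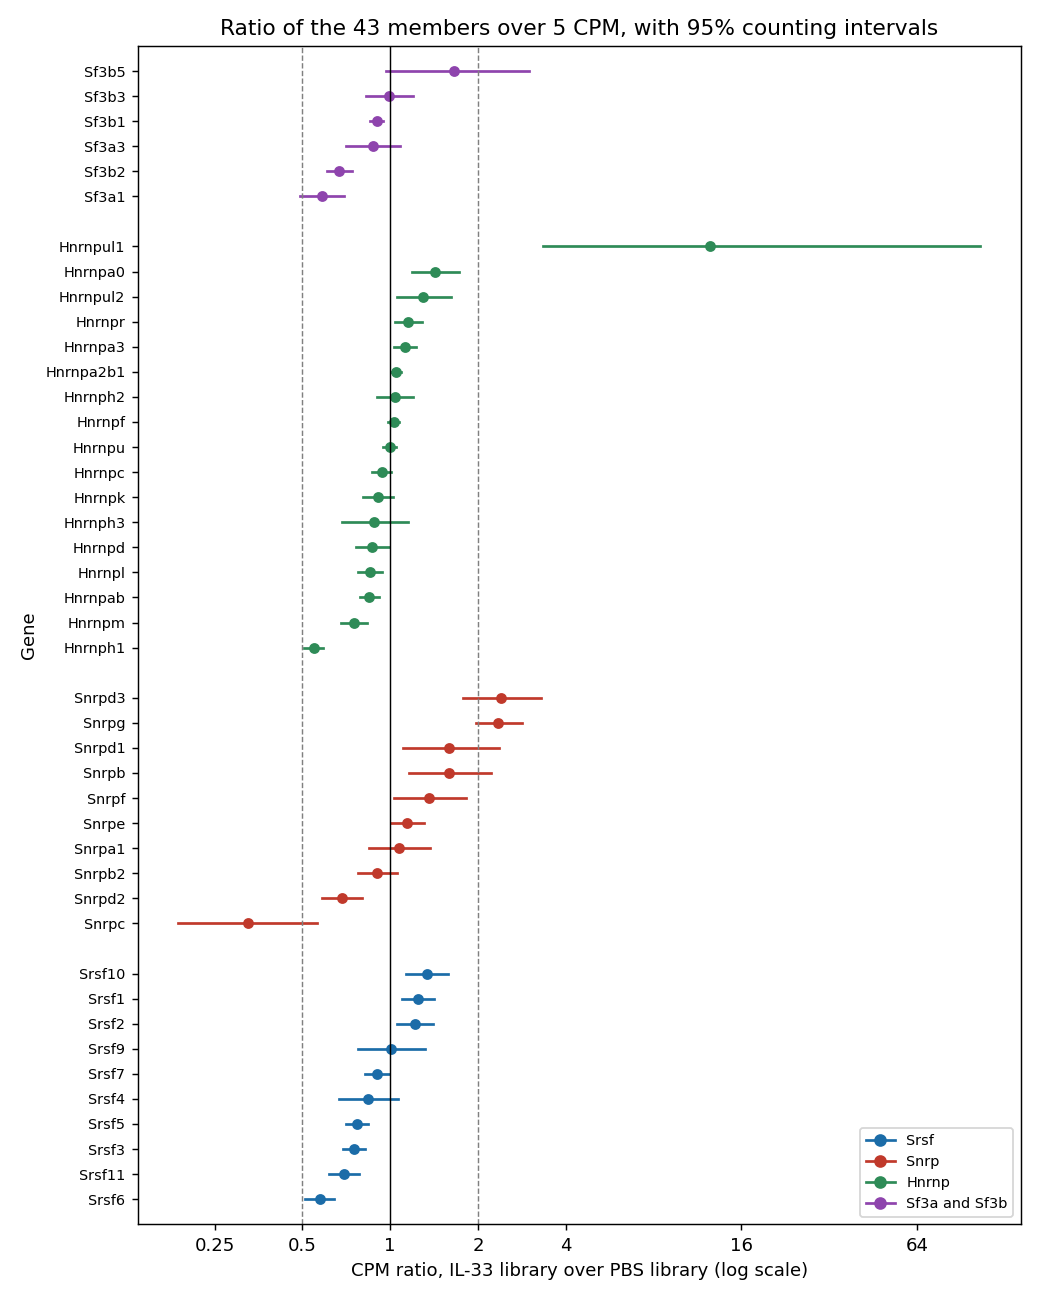
CPM ratio (IL-33 library over PBS library, log axis) of the 43 members above 5 CPM, by family; points are ratios, bars exact conditional 95% counting intervals, the solid line marks 1 and the dashed lines 2-fold. The Sm genes Snrpd3 and Snrpg lie to the right of 2, Snrpc lies to the left of 0.5, and the interval of Hnrnpul1 runs from 3.33 to 106.

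The SF3 subunits, which hold the U2 particle on the branch point, summed to 1687 and 2014 CPM, 0.838 (0.803 to 0.874). Of the 6 above 5 CPM 5 were lower, against 4900 of all 9005 genes at that level. Sf3b1, the large scaffold that is recurrently mutated in myelodysplastic syndromes, supplied 67.2% and 62.7% of the family's counts. It stood at 1134 and 1262 CPM, or 183 and 204 CPM per kb, a ratio of 0.899 (0.852 to 0.948). None of its coding words occur in another annotated gene.

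Within SF3b, Sf3b2, a subunit that contacts the pre-mRNA, had 1132 and 652 counts (277 and 414 CPM), 0.670 (0.607 to 0.738). Sf3b3, the large propeller-shaped subunit, stood at 103 and 104 CPM, 0.991 (0.825 to 1.20). Sf3b5, the smallest subunit among the members, was the only SF3 member above 5 CPM with a log2 difference above 0, at 73 and 17 counts (17.9 and 10.8 CPM), 1.66 (0.967 to 2.995), an interval that holds 1. In SF3a, Sf3a1, the ubiquitin-like subunit that contacts U1 and U2, had 332 and 219 counts (81.4 and 139 CPM), 0.585 (0.491 to 0.697). Sf3a3 stood at 72.5 and 83.2 CPM, 0.871 (0.707 to 1.08). Sf3a1 and Sf3b2 were thus lower beyond counting error, and Sf3a3 and Sf3b3 were not.

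Sf3a2 and Sf3b4, whose proteins are obligate parts of the same complexes, were all but uncounted. Sf3a2, at chr10:80798198-80804924 on the plus strand, had 2 counts and 0, and Sf3b4, at chr3:96172332-96177564, had 3 counts and 1. No fold is given for either. Words of Sf3b4 are shared for the most part (86.6% of coding words), whereas Sf3a2 shares 8.95%. The members nearest the limit of 5 CPM were, above it, Hnrnpul1, Sf3b5 and Snrpc, with 15.9, 17.9 and 20.3 CPM in their higher library, and, below it, Snrpa at 4.41 CPM, Sf3b4 at 0.735 CPM and then Hnrnpa1 and Sf3a2 at 0.490 CPM.

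The SR proteins as a family stood at 2235 and 2627 CPM, 0.851 (0.820 to 0.883), with a median log2 difference of -0.20. Above 0 were 4 of 10 members, against 45.6% of all genes. None was 2-fold apart. Per transcript length Srsf7 and Srsf5 were highest in both libraries, at 324 and 360 CPM per kb for Srsf7 and 246 and 319 CPM per kb for Srsf5.

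Srsf6, an exon-inclusion factor known as SRp55, had 756 and 509 counts (185 and 323 CPM), the lowest ratio of the family at 0.573 (0.511 to 0.642). Srsf11, an SR-rich protein of the nucleus, stood at 190 and 275 CPM, 0.693 (0.615 to 0.781). Srsf3, the smallest SR protein and an mRNA export adaptor, stood at 405 and 539 CPM, 0.751 (0.691 to 0.817). All 3 intervals lay below 1, and neither Srsf6 nor Srsf11 has any word in common with another gene. Srsf5, known as SRp40, stood at 381 and 494 CPM, 0.770 (0.706 to 0.841). Srsf7, which like Srsf3 links splicing to export, stood at 337 and 374 CPM, 0.900 (0.816 to 0.992).

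A smaller set of SR genes was higher in the IL-33 library. Srsf1, the founding SR protein, had 1078 and 334 counts (264 and 212 CPM), 1.24 (1.10 to 1.41). Srsf2, whose protein binds exonic enhancers and is mutated in some myeloid neoplasms, stood at 205 and 169 CPM, 1.21 (1.05 to 1.40). Srsf10, which acts as a repressor when dephosphorylated, stood at 157 and 118 CPM, 1.34 (1.13 to 1.58). These 3 intervals lay above 1. Srsf4 and Srsf9 had intervals that held 1, at 58.6 and 69.9 CPM (0.838, 0.666 to 1.06) and at 52.4 and 52.1 CPM (1.01, 0.777 to 1.31). Srsf12, the remaining row, was at 0 in both libraries.

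The hnRNPs were the most abundant family, at 9129 and 9478 CPM. Their summed ratio of 0.963 (0.945 to 0.982) and median log2 difference of -0.01 both moved to the other side of no change when the libraries were scaled by trimmed mean of M-values (TMM; 1.05 and 0.12). A single gene, Hnrnpa2b1, held 26.1% and 23.9% of the family's counts, and Hnrnpf and Hnrnpu followed with 18.1% and 17.0%, and 13.7% and 13.2%.

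Among the A and B types, which bind exonic silencers and shuttle to the cytoplasm, Hnrnpa2b1 stood at 2378 and 2270 CPM, 1.05 (1.01 to 1.09), and at 1438 and 1372 CPM per kb, the highest of all members per length. Hnrnpa3 stood at 497 and 444 CPM, 1.12 (1.03 to 1.22). Hnrnpa0 had 532 and 144 counts (130 and 91.5 CPM), 1.42 (1.18 to 1.72). Hnrnpab, a relative of the D type, was lower, at 507 and 597 CPM, 0.848 (0.785 to 0.917). Of the A genes apart from Hnrnpa1, all 3 were therefore higher in the IL-33 library, by 1.42-fold or less.

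The F and H types bind G-rich tracts and differed among themselves. Hnrnph1, at chr11:50376990-50386528 on the plus strand, had 1660 and 1170 counts (407 and 743 CPM), 0.547 (0.507 to 0.590), the lowest ratio of the hnRNPs. Its close relatives Hnrnpf (1653 and 1610 CPM, 1.03, 0.980 to 1.07) and Hnrnph2 (182 and 175 CPM, 1.04, 0.900 to 1.19) did not follow it. Hnrnph3 stood at 48.8 and 55.3 CPM, 0.882 (0.682 to 1.15). The interval of Hnrnph1 lay below those of the other 3.

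Of the U types, nuclear scaffold proteins that bind chromatin-associated RNA, Hnrnpu was level at 1247 and 1251 CPM, 0.996 (0.946 to 1.05). Hnrnpul2 stood at 93.4 and 71.8 CPM, 1.30 (1.05 to 1.62). Hnrnpul1, at chr7:25721165-25754757 on the minus strand, had 65 counts against 2 (15.9 and 1.27 CPM), or 12.5 (3.33 to 106). It had the highest ratio of the members above 5 CPM, and it rests on the fewest PBS counts of any of them.

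The remaining hnRNPs have separate roles. Hnrnpl, a CA-repeat binder known to repress the variable exons of Ptprc in T cells, stood at 329 and 386 CPM, 0.852 (0.773 to 0.939). Hnrnpm stood at 264 and 351 CPM, 0.751 (0.677 to 0.834), and Hnrnpd, which also binds AU-rich elements of unstable mRNAs, at 179 and 206 CPM, 0.868 (0.760 to 0.992). These 3 intervals lay below 1. Hnrnpc, a tetramer-forming binder of uridine tracts, stood at 643 and 689 CPM, 0.933 (0.869 to 1.003), and Hnrnpk, a poly(C) binder, at 227 and 250 CPM, 0.907 (0.806 to 1.02). Hnrnpr was higher, at 329 and 285 CPM, 1.15 (1.04 to 1.29). The directions of Hnrnpc, Hnrnpu and Sf3b3 changed under TMM scaling. The intervals of Hnrnpl and Hnrnpd would hold 1 under that scaling.

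The table lists 3 further genes of these families under older names, which the prefixes do not catch; they were found after the values were seen. Hnrpll (now Hnrnpll), a regulator of Ptprc exon use in lymphocytes, had 230 and 195 counts (56.4 and 124 CPM), 0.455 (0.374 to 0.553). Hnrpdl (Hnrnpdl), a D-like hnRNP, stood at 176 and 206 CPM, 0.855 (0.748 to 0.977). The row 0610009D07Rik is Sf3b6, the p14 protein that touches the branch point adenosine, at 241 and 164 CPM, 1.47 (1.28 to 1.69). Of the 3, only Hnrpll was 2-fold apart.

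Transcript length moved with the comparison as a whole. Among 3542 genes averaging at least 50 CPM, the log2 difference had a Spearman rho with length of -0.20, a description across genes that share the same 2 libraries. Split into 5 equal groups by length, the median log2 difference ran from 0.10 in the shortest transcripts (109 to 1613 nt) to -0.19 in the longest (5028 nt and up). The members did not follow this slope as a whole: rho was -0.06 over the 43 members above 5 CPM. The Sm genes are short, with a median length of 1055 nt. Relative to the median of their own length group, 6 of the 7 ring genes were still above it, with a median of 0.55 against 0.65 before. The same count was 6 of 10 for all Snrp, 3 of 10 for Srsf, 10 of 17 for Hnrnp and 3 of 6 for the SF3 genes. What part length or RNA quality has in the ratios was not tested.

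**Figure D4:**
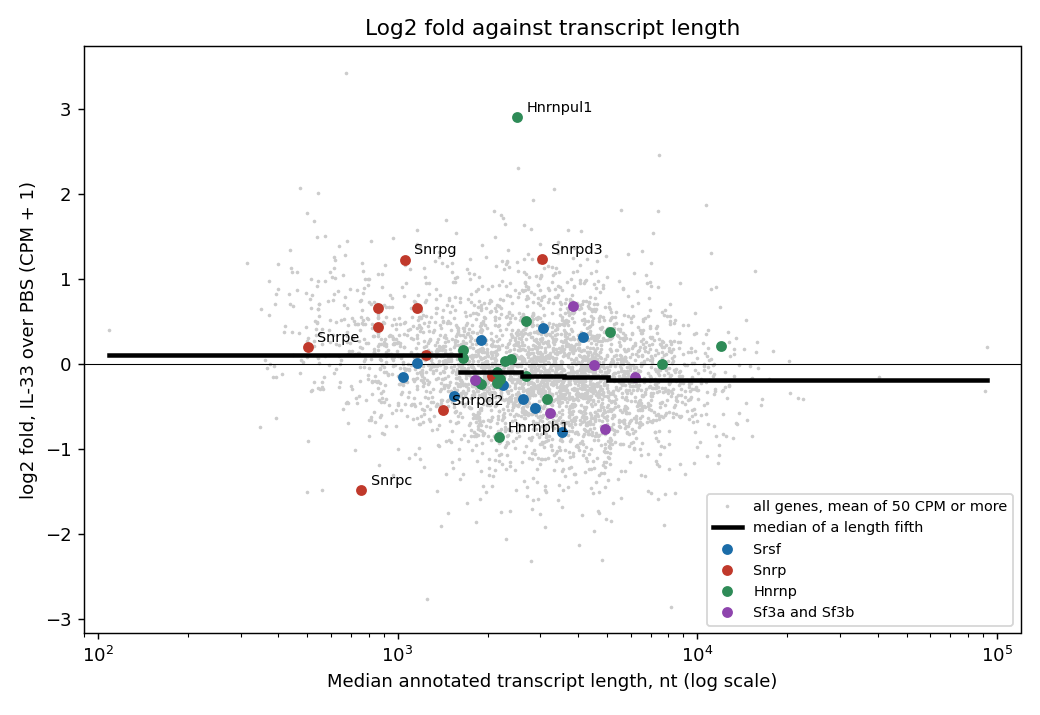
Log2 difference of IL-33 over PBS (CPM + 1) against median annotated transcript length in nt (log axis) for genes averaging at least 50 CPM (grey) and the 43 members above 5 CPM (coloured by family); black bars are the medians of the 5 length groups. The bars step down from 0.10 to -0.19, most Snrp points lie in the shortest group, and Snrpd3 and Snrpg lie above their bars by more than 1 unit.

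Genes that work with these families were followed in 9 lists of 149 symbols, of which 146 were in the table and 136 above 5 CPM; 17 were at least 2-fold higher (12.5%, against 15.5% of all genes) and 6 lower (4.41%, against 16.3%). The LSm proteins, relatives of the Sm proteins that form rings on U6 RNA and in mRNA decay, were the list nearest to the Sm genes. Of 12 above 5 CPM, 3 were at least 2-fold higher and 0 lower, against 15.5% and 16.3% of all genes. Their median log2 difference was 0.46 and 7 of the 12 were above 0, against 45.6% of all genes. The 12 ran from -0.96 to 1.55. The 6 of them averaging at least 50 CPM had a median of 0.17, with 3 above 0 and 1 at least 2-fold apart. Lsm3 stood at 111 and 47.0 CPM, 2.36 (1.84 to 3.06), and Lsm4 at 47.0 and 20.97 CPM, 2.24 (1.54 to 3.35). Lsm5, at 251 and 141 CPM, had a ratio of 1.78 (1.54 to 2.07). These 3 transcripts are short (618, 925 and 494 nt) and fall in the length group whose median over all genes was 0.10. In the list of snRNP assembly factors, which load Sm proteins on RNA, 2 of 13 were higher and 0 lower, with a median of -0.16. There Wdr77, of the methylosome that modifies Sm proteins, stood at 36.3 and 15.9 CPM, 2.28 (1.49 to 3.64), and Clns1a, the chaperone that delivers Sm proteins to it, at 45.3 and 87.1 CPM, 0.521 (0.415 to 0.654). Phax, the export adaptor of small nuclear RNAs, stood at 75.0 and 95.3 CPM, 0.787 (0.645 to 0.963).

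In the list of SR cofactors and SR protein kinases, 1 of 14 was higher and 1 lower, against 15.5% and 16.3% of all genes, with a median of -0.11. The lower gene was Srpk2, a kinase that phosphorylates SR proteins, at 86.3 and 215 CPM, 0.402 (0.345 to 0.468). Clk4, another SR protein kinase, went the other way at 157 and 104 CPM, 1.51 (1.27 to 1.81), and the enhancer-binding cofactor Tra2a stood at 105 and 160 CPM, 0.657 (0.561 to 0.770). Of 10 genes of 3′ splice site recognition, 1 was higher and 3 lower, against the same shares of all genes, with a median of -0.16. Cherp and Rbm17, U2-associated proteins, were among the lower ones, at 24.3 and 50.8 CPM (0.477, 0.352 to 0.649) and at 69.1 and 140 CPM (0.494, 0.413 to 0.592). Dhx15, a helicase that takes spliceosomes apart, stood at 158 and 240 CPM, 0.660 (0.580 to 0.751).

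Of 24 U1, U4 and U5 specific and PRPF proteins, 3 were higher and 0 lower, against 15.5% and 16.3% of all genes, with a median of -0.10. Luc7l, a U1-associated factor in splice site selection, stood at 98.0 and 22.9 CPM, 4.28 (3.04 to 6.21), and Snrnp200, the U5 helicase that unwinds U4 from U6, at 258 and 125 CPM, 2.07 (1.78 to 2.42). Cd2bp2, a protein of the U5 particle, went the other way at 45.6 and 85.1 CPM, 0.535 (0.426 to 0.673). Of 25 other RNA-binding splicing regulators, 0 were higher and 1 lower, with a median of -0.07. That gene was Ptbp2, a polypyrimidine tract binder best known in neurons, at 15.2 and 61.0 CPM, 0.249 (0.178 to 0.346).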

How the data were processed

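The authors deposited whole-number raw counts per gene for both libraries of muscle Treg cells. Per the labels' protocols, poly(A) RNA was made into amplified cDNA, fragmented with a transposon and sequenced as paired 25 bp reads. Per the submitters' processing notes, TopHat2 2.0.10, Cufflinks 2.2.1 and mm10 were used; which program counted reads, with which annotation and strand setting, is not given in the sources used here. Columns left unused numbered 0.

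From these counts, CPM, ratios with exact 95% intervals and log2(CPM + 1) differences were computed with Python 3.11.15, numpy 2.4.6, pandas 2.3.3 and scipy 1.17.1 (plots with matplotlib 3.10.9) and tested on simulated data. R 4.3.3 with edgeR 4.0.16 gave TMM factors only. Positions, lengths (median of RefSeq-paired transcripts), GC and sequences came from GENCODE M21; 20929 symbols matched directly and 1919 through an older symbol, while 489 did not match.

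Members, lists and subgroups by role were chosen with earlier results of these data known. Every member is accounted for. In each pathway list up to 3 genes are named, those with the largest log2 difference among genes averaging at least 20 CPM. One gene that this rule takes is not reported here. Alternatives were other scalings, floors, pseudocounts and folds, and sums without the most abundant member.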

Additional observations from a re-analysis of the deposited data

How the results depend on the processing

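No paired analysis was possible because each group had 1 library, and no library could be left out. TMM scaling raised every ratio by 0.12 on the log2 scale and median-of-ratios scaling by 0.11, taking the median of all genes from -0.08 to 0.05 and 0.04. A median near 0 changed sign with it. The intervals move by the same amount, so whether those ending near 1 hold it depends on the scaling. Under TMM the intervals of Hnrnpl, Hnrnpd, Sf3b1 and Srsf7 would hold 1, and those of Hnrnpf, Hnrnpu and Sf3b5 would lie above it. The all-member median, -0.01, became 0.11 (TMM), 0.10 (median of ratios), 0.031 (total without the 10 most abundant genes), 0.0091 (no floor) and 0.00042 (relative to genes of like length). The Hnrnp median, -0.01, became 0.12, 0.11, 0.034, 0.016 and 0.14 in the same order. Summed ratios under TMM and median of ratios were 1.05 and 1.04 for Hnrnp, 0.911 and 0.907 for Sf3a and Sf3b, 1.32 and 1.32 for Snrp, and 0.925 and 0.921 for Srsf; the Hnrnp ratio was 0.990 without the 10 most abundant genes. Leaving out the most abundant member gave 0.936 for Hnrnp (without Hnrnpa2b1) and 0.736 for Sf3a and Sf3b (without Sf3b1). With the 3 genes under older names, an alternative added after seeing the data as was the length one, the Sf3a and Sf3b ratio was 0.885 and 2 Hnrnp genes, not 1, were 2-fold apart. At 1.5-fold, 10 members were apart rather than 4: 2 Hnrnp, 2 Sf3a and Sf3b, 5 Snrp and 1 Srsf. At a floor of 20 CPM, 0 Hnrnp genes were apart, since Hnrnpul1 falls below it. None of the 43 members changed its 2-fold call under another scaling, pseudocount or length setting. With no floor, and with the total without the 10 most abundant genes, Snrpa entered as higher. Then 5 members were apart, 4 of them Snrp. Of the 43, 3 changed sign under TMM (Hnrnpc, Hnrnpu and Sf3b3), the same 3 under median of ratios, and 6 relative to length. The PBS library holds 2.59 times fewer counts and limits the precision of low members most.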

Other observations

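Further lists of genes around the spliceosome were measured in the same way, against 15.5% of all genes at least 2-fold higher and 16.3% lower. Of 9 proteins of the minor spliceosome, which removes a rare class of introns, 2 were higher and 0 lower, yet the median log2 difference was -0.50 with 3 above 0. Zcrb1, of the U11 and U12 particle, had 186 and 112 counts (45.6 and 71.2 CPM), 0.640 (0.504 to 0.817). Pdcd7 stood at 43.4 and 63.5 CPM, 0.683 (0.531 to 0.881), and Snrnp48 at 27.2 and 39.4 CPM, 0.690 (0.502 to 0.958). All 3 named genes were lower in the IL-33 library.

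Of 16 splicing helicases and export factors, 2 were higher and 1 lower, with a median of -0.00. Ddx23, the U5 helicase that admits U6 to the upstream splice site, had 142 and 10 counts (34.8 and 6.35 CPM), 5.48 (2.89 to 11.7). Aqr, an intron-binding helicase, stood at 122 and 52.1 CPM, 2.34 (1.85 to 2.996). Thoc1, a subunit of the THO export complex, went the other way with 146 and 197 counts (35.8 and 125 CPM), 0.286 (0.229 to 0.356).

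Of 13 exon junction and nonsense-mediated decay genes, 3 were higher and 0 lower, with a median of -0.04. The kinase Smg1, which phosphorylates UPF1, had 1054 and 190 counts (258 and 121 CPM), 2.14 (1.83 to 2.51). Smg6, a nuclease of the same decay pathway, stood at 71.1 and 126 CPM, 0.565 (0.470 to 0.680). Among other regulators, Mbnl2, a muscleblind protein, stood at 74.3 and 38.1 CPM, 1.95 (1.47 to 2.61), and Tial1, a U-rich binder, at 124 and 223 CPM, 0.556 (0.484 to 0.639). Neither reached 2-fold.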
